A study of Homo sapiens with 12 samples.

Results

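The ZNF genes encode zinc finger proteins named by number. Here 75 of them were followed through HL‐60 cells after 3 h with all‐trans retinoic acid (ATRA), palbociclib or both. HL‐60 is a human acute myeloid leukaemia line that the study counts as other than acute promyelocytic leukaemia. The 75 genes were taken from the 58233 genes of the expression table by symbol, ZNF followed by digits and at most 1 letter from A to F, which 514 genes met, and by level, at least 5 RPKM in at least 3 of 12 libraries. The members were thus selected on their measured levels, also of the treated groups. RPKM is the number of reads scaled to gene length and to the mapped reads of a library, so levels can be set beside each other between genes. The 4 groups of 3 libraries were untreated cells, cells with 100 nM ATRA, cells with 500 nM palbociclib and cells with 100 nM ATRA and 500 nM palbociclib together. All 4 groups were the same parental line without a transgene, and nothing in the labels ties a replicate number to a separate thaw or culture, so p-values measure the spread between these libraries.

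Most ZNF proteins bind DNA through tandem C2H2 fingers, in which a pair of cysteines and a pair of histidines hold a zinc ion and each finger reads a few bases. The largest group adds a KRAB box, which recruits the corepressor TRIM28 and with it histone methylation and silencing, and many of these genes lie in clusters on chromosome 19 and restrain transposable elements. Other members have no such box and are known from ribosome maturation, RNA processing, the mitotic spindle or chromatin complexes. ATRA activates retinoic acid receptors and drives HL‐60 cells towards granulocytes, and palbociclib inhibits the kinases CDK4 and CDK6, which release E2F factors from the retinoblastoma protein.

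The level limit left out 439 ZNF genes, of which 213 were listed at 0 in every library. Just inside the limit, ZNF174, ZNF189, ZNF22, ZNF277 and ZNF280C had values from 3 to 6 RPKM, and just outside it ZNF12, ZNF134, ZNF267, ZNF292 and ZNF35 had values from 2 to 5 RPKM. Of the 75 genes, 52 were at 5 RPKM or more in all 12 libraries. ZNF76, ZNF277 and ZNF385A reached 5 RPKM only in libraries with ATRA, and ZNF367 only in untreated libraries, so for these 4 genes the limit itself asked for a high value in those groups. Other genes were affected in part. ZNF513 and ZNF189 reached 5 RPKM in no untreated library, ZNF280C and ZNF398 in no library with ATRA, and ZNF362 in no palbociclib library. Their p-values in comparisons with those groups are likewise not independent of their selection. Counts over the 52 genes are therefore given beside those over the 75.

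The cells carried the myeloid markers of the line, with MPO, the myeloperoxidase of granule precursors, at 1077 to 1579 RPKM and 6 of the other 7 myeloid markers at 6 RPKM or more, while ELANE was listed at 0 or 1 and 6 markers of lymphoid, epithelial, hepatic, stromal and erythroid cells at 0 in every library. DHRS3, a retinaldehyde reductase induced by retinoic acid, was at 0 to 1 RPKM in libraries without ATRA and at 40 to 50 RPKM in those with it. HIC1, another ATRA check, was at 0 without and at 8 to 12 RPKM with ATRA. The remaining ATRA checks, CYP26A1 and RARB, were listed at 0 in every library, also in those with ATRA. E2F1, which drives entry into S phase, was at 12 to 14 RPKM in untreated libraries, 8 to 9 with ATRA, 4 to 5 with palbociclib and 3 to 4 with both. The replicate 1 libraries of the 3 treated groups stood apart from their replicates 2 and 3. In them 11.5% of the 7820 genes that met the same level limit were lower than in every replicate 2 and 3 of the treated groups, and 16.6% were higher. Among the ZNF genes 11 were lower and 5 higher, and counts without all replicate 1 libraries, an alternative chosen after seeing the data, are given where they matter.

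The level limit set the lower end of the range of the ZNF genes, and levels of all genes were not set beside theirs. Means over the 12 libraries ran from 3.92 to 55.1 RPKM with a median of 7.5, and 18 genes reached a mean of 10 while 27 stayed under 6. Together the 75 genes made up 0.169 to 0.197% of the summed RPKM of a library. The table gives whole numbers, so at these levels 1 rounding step is a large part of a value, and many replicates share a value.

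The highest level by far was that of a ribosome factor. ZNF622, a factor that matures the large ribosomal subunit in the cytoplasm, was at 52, 45 and 49 RPKM in untreated libraries, 59, 52 and 58 with ATRA, 62, 51 and 54 with palbociclib and 61, 55 and 63 with both. It lay above every other ZNF gene in each library. ZNF330, a nucleolar protein, followed at 25 to 33 RPKM over the 12 libraries, and its 4 groups overlapped. ZNF146, a protein made almost only of fingers, was at 20 to 28 RPKM, ZNF598, the ubiquitin ligase that senses collided ribosomes, at 16 to 25 RPKM, and ZNF207 (BuGZ), a spindle and RNA‐processing protein, at 17 to 20 RPKM. ZNF687, ZNF24, ZNF638, ZNF106 and ZNF770 completed the 10 highest, with group means from 12 to 23 RPKM. Neighbours in this order, other than ZNF622 above ZNF330, overlapped in their ranges over the libraries.

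**Figure D1:**
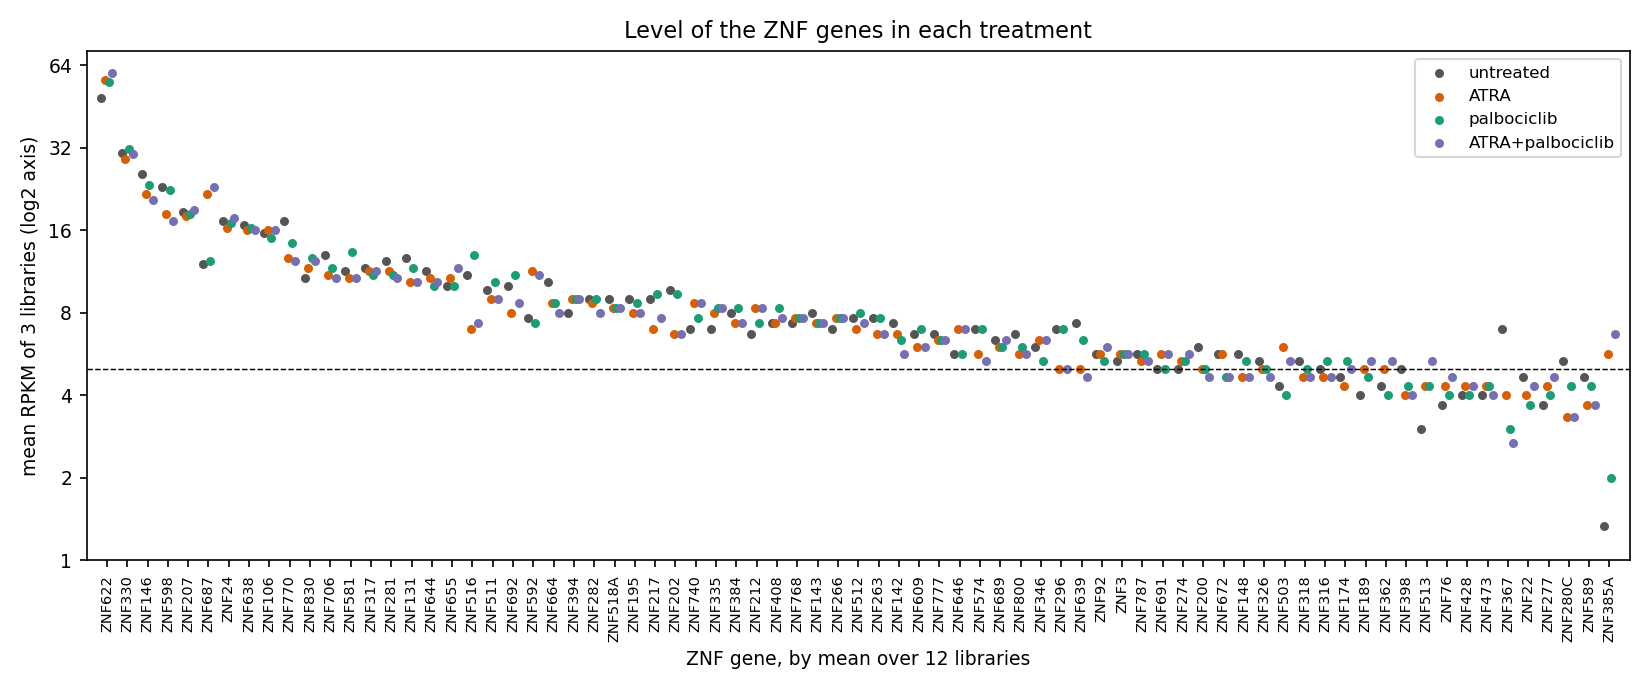
Mean RPKM of the 3 libraries of each group (y axis, log2) for the 75 ZNF genes, ordered by the mean over all 12 libraries (x axis), with a dashed line at the 5 RPKM of the level limit. ZNF622 stands alone near 50 to 60 RPKM, most genes lie between 4 and 16 RPKM with the 4 groups close together, and ZNF687, ZNF516, ZNF513, ZNF367 and ZNF385A show the widest gaps between groups.

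The first comparison asked which ZNF genes moved with ATRA alone. In all 6 rose and 9 fell against untreated cells. The highest fold was that of ZNF385A, and ZNF687 had the lowest p-value of the 15, while ZNF367, ZNF280C, ZNF516 and ZNF639 were the genes that fell furthest. By limma on log2(RPKM + 0.1), with Benjamini-Hochberg adjustment over all 7820 genes, the 6 rises are 8% of the ZNF genes beside 8.71% of all genes, and the 9 falls are 12% beside 11.6%. Of the 52 genes present in all libraries 4 rose and 5 fell, with 7.49% and 11.5% for the 6499 genes of that kind. Across the 75 genes the median log2 change was −0.09, between quartiles of −0.23 and 0.11, beside −0.01 for all genes.

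ZNF385A (Hzf), a zinc finger protein that binds mRNAs and p53, was at 1, 2 and 1 RPKM in untreated libraries and at 4, 7 and 6 with ATRA. The groups did not overlap, with every ATRA library above the highest untreated value. The log2 change was 2.04 ± 0.39 (SE, adjusted p = 0.00391 by limma), and rounding to whole numbers alone allowed 1.495 to 2.89. As the gene met the level limit only through libraries with ATRA, its p-values here and in later comparisons are not independent of its selection. The gene lies on chr12:54369133-54391298 (GRCh38) and shares no exonic base with a gene on the opposite strand.

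ZNF687 and ZNF592 encode partners of 1 complex, in which they join the chromatin reader ZMYND8. ZNF687 was at 13, 12 and 11 RPKM in untreated libraries and at 19, 24 and 22 with ATRA, a log2 change of 0.84 ± 0.11 (SE, adjusted p = 0.000367 by limma). ZNF592 was at 8, 8 and 7 RPKM in untreated libraries and at 10, 12 and 12 with ATRA, a log2 change of 0.56 ± 0.12 (SE, adjusted p = 0.00886 by limma). In both genes every ATRA library lay above every untreated one. ZNF532, the other zinc finger partner of the complex, was listed at 0 in all 12 libraries, and ZMYND8 itself was at 5, 7 and 7 RPKM without and 6, 8 and 9 with ATRA, with overlapping groups. ZNF592 (chr15:84748592-84806445) overlaps no opposite gene in its exons. ZNF687 (chr1:151281618-151292176) shares 6.0% of its exonic bases with PI4KB and 6.1% with an antisense RNA. HTSeq counts by strand in its default settings, but whether the library kit kept the strand was not given in the sources used here, so reads from the shared stretch may come from either gene, and PI4KB was at 27 to 28 RPKM in untreated and 32 to 36 with ATRA.

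The other 3 genes with rises had smaller steps. ZNF513, a factor linked to photoreceptor genes, was at 3 RPKM in all 3 untreated libraries and at 4, 4 and 5 with ATRA (log2 change 0.51, adjusted p = 0.0156 by limma). ZNF212, which has a KRAB box, went from 7, 7 and 6 to 9, 8 and 8 RPKM (0.32, adjusted p = 0.0316 by limma). ZNF740 went from 7 RPKM in all 3 untreated libraries to 8, 9 and 9 (0.30, adjusted p = 0.0213 by limma). Each was separated from untreated cells by 1 rounding step, and ZNF740 shares 20.8% of its exonic bases with ITGB7 on the opposite strand, which was at 1 RPKM in untreated libraries and 2 to 3 with ATRA, while ZNF513 shares 12.7% with SNX17, which was at 29 to 34 and 33 to 36.

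Among the genes that fell, ZNF516, a partner of the corepressors CtBP and LSD1, was at 11 RPKM in all 3 untreated libraries and at 6, 7 and 8 with ATRA. Its log2 value fell by 0.65 ± 0.14 (SE, adjusted p = 0.00729 by limma), and the gene lies on chr18:76357682-76495242. ZNF639 (ZASC1), which lies in a region of chromosome 3 amplified in squamous carcinomas (chr3:179323031-179338583), went from 8, 7 and 7 to 5 RPKM in all 3 ATRA libraries, and its log2 value fell by 0.54 ± 0.11 (SE, adjusted p = 0.00423 by limma). These 2 genes had no overlap between groups and no opposite exonic overlap. ZNF280C, a relative of the Drosophila insulator protein Suppressor of Hairy-wing, went from 6, 5 and 5 to 3, 4 and 3 RPKM, and the log2 value fell by 0.67 (adjusted p = 0.0131 by limma).

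The other falls were shallow. ZNF598 went from 25, 23 and 21 to 20, 18 and 17 RPKM, and its log2 value fell by 0.33 (adjusted p = 0.0262 by limma). ZNF146 went from 28, 24 and 25 to 21, 22 and 22 RPKM, and ZNF131, a BTB-domain factor, from 14, 12 and 12 to 11, 10 and 10, and their log2 values fell by 0.24 and 0.29. The levels of these 3 genes are well above the rounding step and their groups did not overlap, but those of ZNF598 and ZNF131 were 1 step apart. All 3 calls were lost with library median centring. With 1 library left out the call was lost in 4 of 6 fits for ZNF598, 3 for ZNF131 and 1 for ZNF146. ZNF598 shares 10.7% of its exonic bases with an antisense RNA and ZNF146 10.8% with ZNF565, which was listed at 0 throughout. ZNF574 went from 7 RPKM in all untreated libraries to 6, 5 and 6, and its log2 value fell by 0.31. ZNF398, a KRAB gene, was at 5 RPKM in all untreated and 4 in all ATRA libraries, and rounding alone allowed any log2 change from −0.65 to 0.

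The ATRA calls of 6 genes, ZNF385A, ZNF687, ZNF592, ZNF516, ZNF639 and ZNF367, held whichever of the 6 libraries was left out, and the other 9 were each lost without at least 1 library. That of ZNF398 was lost in all 6 such fits, those of ZNF740 and ZNF574 in 5, and those of ZNF212 and ZNF598 in 4. ZNF131 lost it in 3, ZNF280C in 2, and ZNF146 and ZNF513 in 1. Without untreated replicate 1 the 9 falls became 4, without ATRA replicate 2 or 3 they became 5, and without ATRA replicate 3 the 6 rises became 3. Centring every library on its median gave 5 rises and 4 falls in place of 6 and 9. With a term for the replicate number in the fit (a replicate block) 10 rose and 17 fell, the first 15 among them. Of all genes 14.7% rose and 20.7% fell in that fit. Without all replicate 1 libraries 5 genes rose and 10 fell, beside 10.5% and 14.8% of all genes, and the calls of ZNF280C, ZNF513 and ZNF574 were lost. The adjusted p of ZNF280C ran up to 0.146 by limma over the alternatives.

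**Figure D2:**
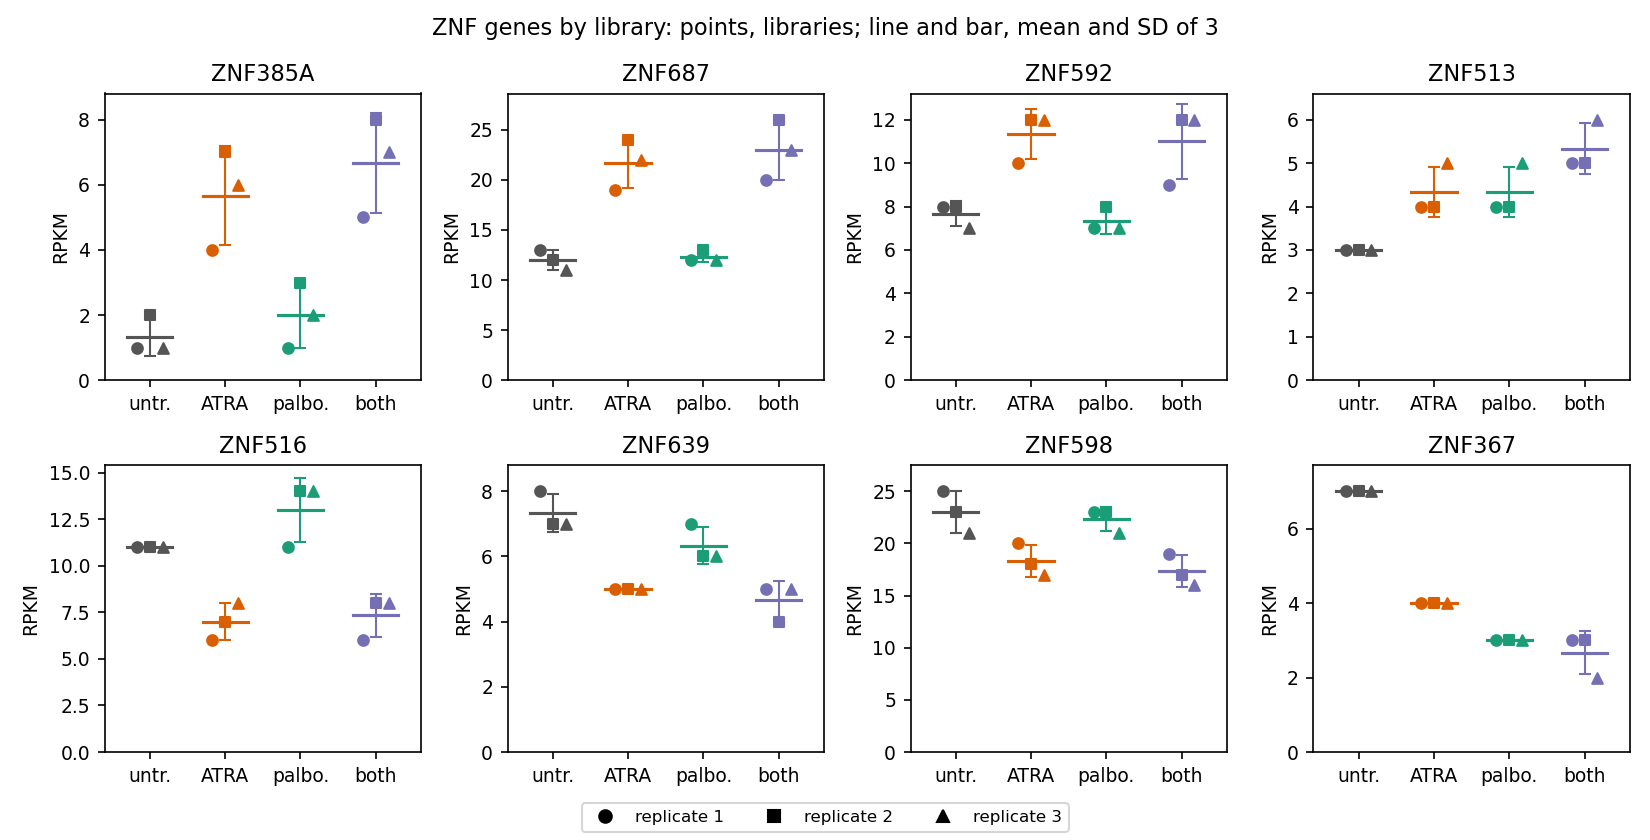
RPKM (y axis, from 0) of 8 ZNF genes in the 12 libraries, by group (x axis: untreated, ATRA, palbociclib, both), with a symbol for each replicate number and the mean and SD of 3 as a line and bar. ZNF385A, ZNF687 and ZNF592 are higher in both groups with ATRA than in both groups without it, ZNF516, ZNF639 and ZNF598 are lower there, ZNF513 is at 3 RPKM in untreated and 4 to 6 in treated libraries, and ZNF367 is at 7 RPKM in untreated and 2 to 4 in all treated libraries.

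ZNF367 (ZFF29), a factor first described in erythroid cells, was the 1 gene called with palbociclib alone, and it also fell with ATRA. It was at 7 RPKM in all 3 untreated libraries, 4 in all 3 with ATRA, 3 in all 3 with palbociclib, and 3, 3 and 2 with both. Each treated library was below every untreated one, and the palbociclib libraries were 1 rounding step below the ATRA libraries, a difference that was not tested. The log2 value fell by 1.20 ± 0.14 with palbociclib (SE, adjusted p = 0.000753 by limma, rounding range −1.59 to −0.89) and by 0.79 ± 0.14 with ATRA (SE, adjusted p = 0.00214 by limma). As ZNF367 met the level limit only through untreated libraries, its p-values that involve those libraries are not independent of its selection. The gene lies on chr9:96385941-96418370 and has no opposite exonic overlap.

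In the unblocked fit palbociclib alone moved no other ZNF gene past the threshold. With limma, 0 of 75 genes rose, beside 0.908% of all genes, and 1 fell, beside 3.16%. Before adjustment 2 genes were higher and 5 lower at p under 0.05, beside 7.28% and 10.1% of all genes. The median log2 change of the 75 genes was −0.03 and that of all genes 0, and none of the 52 genes present in all libraries passed the threshold. ZNF513 was at 4, 4 and 5 RPKM with palbociclib, the same 3 values as with ATRA, and its log2 change of 0.51 had an adjusted p of 0.050047 by limma, just over the threshold of 0.05. It passed with library median centring (0.0262), without a variance trend (0.0356) and with a replicate block (0.00645, all by limma). The block also called ZNF622, ZNF335 and ZNF830 higher, so that 4 rose and 1 fell, beside 5.5% and 8.13% of all genes. ZNF516 was at 11, 14 and 14 RPKM with palbociclib and at 11 in all untreated libraries, and did not pass the test. Without palbociclib replicate 1 ZNF398 fell as well, and without all replicate 1 libraries 3 genes were higher (ZNF516, ZNF384 and ZNF740) and 2 lower (ZNF367 and ZNF398), beside 2.62% and 3.82% of all genes.

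The 250 bases before the start of ZNF367 held the letters TTTCCCGC, a form of the site that E2F factors are known to bind, so its promoter is shown with those of the other 2 ZNF genes whose promoters held these letters. The sequences are from RefSeq (GRCh38.p14), 5′ to 3′ on the strand of the gene, and the letters lie on the opposite strand, so that capitals mark them as GCGGGAAA.
ZNF367: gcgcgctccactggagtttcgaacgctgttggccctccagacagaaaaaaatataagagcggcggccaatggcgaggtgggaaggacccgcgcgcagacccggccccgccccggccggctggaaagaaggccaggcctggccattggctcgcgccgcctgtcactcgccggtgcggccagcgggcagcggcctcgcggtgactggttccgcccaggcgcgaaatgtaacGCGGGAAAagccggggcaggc
ZNF687: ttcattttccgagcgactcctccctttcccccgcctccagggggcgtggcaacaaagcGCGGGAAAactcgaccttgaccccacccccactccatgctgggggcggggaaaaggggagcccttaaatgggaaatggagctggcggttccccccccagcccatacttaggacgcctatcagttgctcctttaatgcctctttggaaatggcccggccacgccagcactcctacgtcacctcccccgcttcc
ZNF644: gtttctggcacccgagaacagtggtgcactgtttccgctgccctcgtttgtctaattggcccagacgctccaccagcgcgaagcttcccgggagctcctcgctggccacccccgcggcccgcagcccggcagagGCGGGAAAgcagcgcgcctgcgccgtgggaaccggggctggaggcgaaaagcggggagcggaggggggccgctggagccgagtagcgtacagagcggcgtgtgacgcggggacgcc
The windows are chr9:96418371-96418620 (minus strand), chr1:151281272-151281521 (plus strand) and chr1:91022036-91022285 (minus strand). The letters began 21 bases before the start in ZNF367, 192 in ZNF687 and 116 in ZNF644. Over windows from 250 bases before to 50 after the start, on both strands, 1.659% of 27305 promoters held TTTCCCGC, as did 3 of the 69 ZNF genes with an entry (4.3%). TTTGGCGC, a related form, was in 0.659% of promoters and in that of ZNF131. No other form of the E2F site was searched for, so the lower-case letters may hold further forms, and these shares do not cover all of them. Direct repeats of AGGTCA or AGTTCA spaced by 5 bases, the letters read by retinoic acid receptors, were in 5 of all promoters (0.018%) and in none of the 69. Of the 3 genes with TTTCCCGC, 1 passed the test with palbociclib. There ZNF367 fell, ZNF687 was at 12, 13 and 12 RPKM beside 13, 12 and 11 in untreated libraries, and ZNF644, a partner of the histone methyltransferase G9a, was at 8, 11 and 11 beside 12, 11 and 11.

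With ATRA and palbociclib together, 9 ZNF genes rose and 13 fell against untreated cells. The 15 genes called with ATRA alone were among these 22. With limma the rises are 12% of the ZNF genes beside 12.7% of all genes, and the falls 17.3% beside 17.7%. Of the 52 genes present in all libraries 6 rose and 8 fell, with 11.5% and 17.5% for all such genes. The median log2 change was −0.09, beside −0.01 for all genes. The ATRA and combination comparisons share the untreated libraries, so their agreement is not independent, and centring on the library median gave 12 rises and 8 falls. A replicate block gave 12 rises and 20 falls, the first 22 genes among them, beside 19.8% and 25.5% of all genes.

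ZNF385A was at 5, 8 and 7 RPKM in the combination, a log2 change of 2.28 ± 0.39 (SE, adjusted p = 0.00134 by limma). ZNF687 was at 20, 26 and 23 RPKM (0.93, adjusted p = 0.000123 by limma), ZNF592 at 9, 12 and 12 (0.51, adjusted p = 0.0103 by limma) and ZNF513 at 5, 5 and 6 (0.80, adjusted p = 0.000797 by limma). All lay above the untreated range. ZNF516 was at 6, 8 and 8 RPKM, ZNF639 at 5, 4 and 5 and ZNF280C at 3, 4 and 3, with log2 values that fell by 0.59, 0.65 and 0.67. ZNF367, at 3, 3 and 2 RPKM, fell furthest of the 22 genes and decreased by 1.38 ± 0.14 (SE, adjusted p = 3.63e-05 by limma).

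A further 7 genes passed the threshold in the combination and not with ATRA alone, and whether the 2 effects differ is covered by the test of the combination against ATRA. With a replicate block ZNF622, ZNF189, ZNF335, ZNF200 and ZNF202 of these passed with ATRA alone as well. ZNF622 rose, from 45 to 52 RPKM in untreated libraries to 55 to 63 in the combination (log2 change 0.29, adjusted p = 0.0293 by limma). ZNF189, a KRAB gene, went from 4 RPKM in all untreated libraries to 6, 5 and 5, and ZNF335, a part of a histone methyltransferase complex needed in neural progenitors, from 7 in all to 8, 8 and 9. The 3 rises were 0.25 to 0.40 on the log2 scale. ZNF664 went from 11, 11 and 9 to 8 RPKM in all 3 libraries, ZNF142, which shares exonic bases with PLCD4 on the opposite strand, from 8, 7 and 7 to 5, 6 and 6, and ZNF200 from 6 in all to 5, 5 and 4. ZNF202, a SCAN-domain repressor of lipid genes, went from 11, 8 and 10 to 7, 5 and 8 RPKM. It was the 1 called gene whose groups overlapped, and its call was lost in 4 of the 6 fits that each left out 1 library. The call of ZNF622 was likewise lost in 4 of 6, and that of ZNF398, a gene also called with ATRA alone, in 5 of 6. Without all replicate 1 libraries 9 genes rose and 11 fell in the combination, beside 13.7% and 19.6% of all genes, and 7 of the 22 calls were lost, namely those of ZNF142, ZNF189, ZNF202, ZNF280C, ZNF574, ZNF622 and ZNF664.

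**Figure D3:**
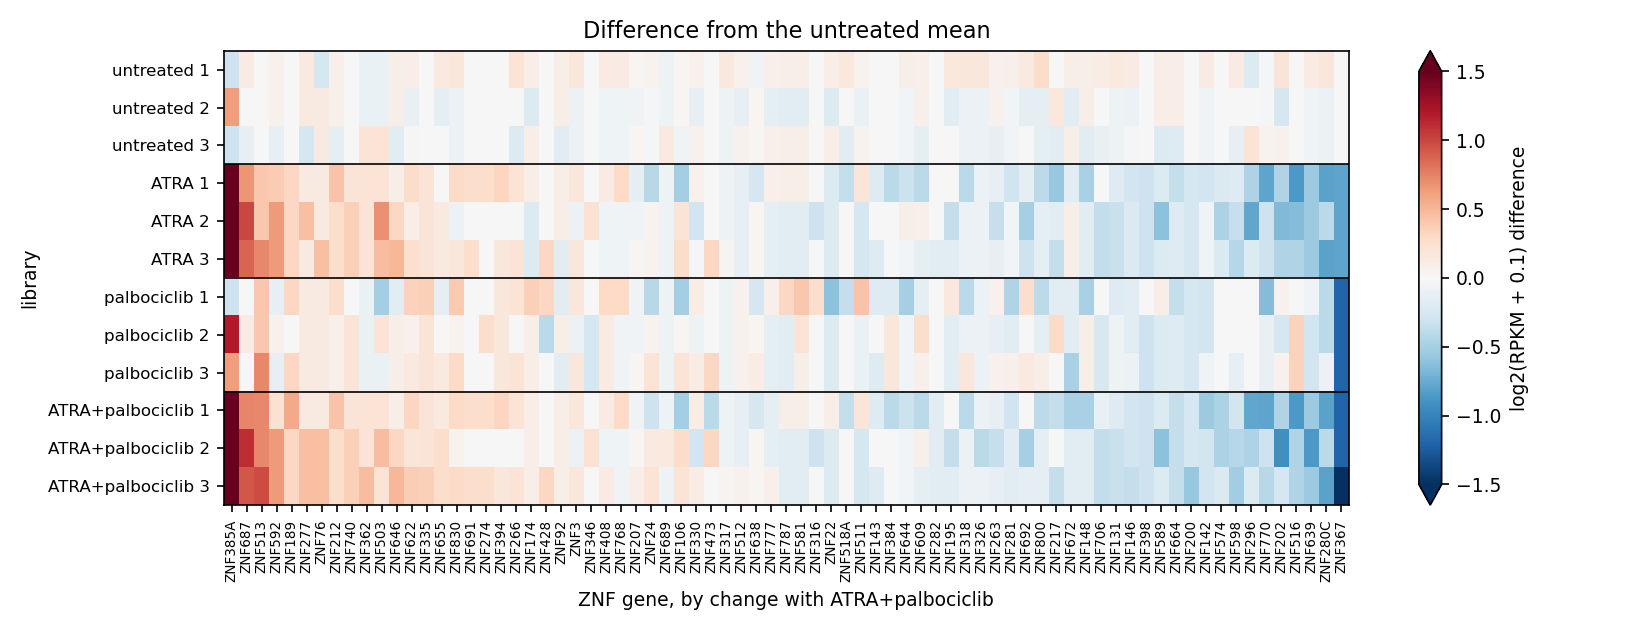
Difference of each library (rows) from the untreated mean, in log2(RPKM + 0.1), for the 75 ZNF genes ordered by their change in the combination (columns), with colours that saturate at 1.5 in either direction. ZNF385A and ZNF687 at the left are red in all 6 libraries with ATRA, ZNF367 at the right is blue in all 9 treated libraries, and blue replicate 1 cells in the 3 treated groups mark ZNF106 and ZNF24.

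At a stricter adjusted p under 0.001 few ZNF genes were left. With ATRA 1 rose (ZNF687) and 0 fell, beside 2.77% and 1.94% of all genes, and with palbociclib 0 rose and 1 fell (ZNF367), beside 0.0128% and 0.486%. In the combination 2 rose (ZNF687 and ZNF513) and 2 fell (ZNF367 and ZNF639), beside 3.76% and 4.28%. ZNF513 met the level limit without any untreated library and ZNF367 only through untreated libraries, so these calls are not independent of selection.

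Adding palbociclib to ATRA moved no ZNF gene past the threshold. Against ATRA alone limma called 0 of 75 genes in either direction, beside 0 and 0.115% of all genes, and before adjustment ZNF513 was higher and ZNF367 lower at p under 0.05, beside 0.563% and 3.11% of all genes. ZNF367 was at 4 RPKM in each ATRA library and at 3, 3 and 2 in the combination, without overlap. The log2 value fell by 0.59 (95% interval −0.89 to −0.29, unadjusted p = 0.00125, adjusted p = 0.228 by limma, and 0.103 when the fit held a term for the replicate number). The result for this gene thus failed the correction over 7820 genes. The median over the 75 genes was 0, as it was over all genes.

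Adding ATRA to palbociclib changed 8 ZNF genes. Of these 4 rose, beside 5.86% of all genes, and 4 fell, beside 6.64%, and of the 52 genes present in all libraries 2 rose and 3 fell, with 4.68% and 6.32% for all such genes. Same-numbered treated libraries deviated together, and in limma with a replicate block 7 rose and 10 fell, the first 8 among them, beside 10.1% and 13.4% of all genes. ZNF385A was at 1, 3 and 2 RPKM with palbociclib and at 5, 8 and 7 with both (log2 change 1.79, adjusted p = 0.0114 by limma). ZNF687 went from 12, 13 and 12 to 20, 26 and 23 (0.89, adjusted p = 0.000333 by limma), and ZNF592 from 7, 8 and 7 to 9, 12 and 12 (0.57, adjusted p = 0.0111 by limma). The other rise was that of ZNF362, from 4 RPKM in all 3 libraries to 5, 5 and 6. ZNF516 fell from 11, 14 and 14 to 6, 8 and 8 RPKM, by 0.82 on the log2 scale (adjusted p = 0.00269 by limma). ZNF639, ZNF574 and ZNF598 fell by 0.44, 0.39 and 0.37. At an adjusted p under 0.001 ZNF687 alone was left of these, so 1 rose and 0 fell, beside 2.11% and 0.997% of all genes. Calls of ZNF687 and ZNF516 held whichever library was left out, while the 4 rises became 2 without combination replicate 2 or 3 and the 4 falls became 2 without palbociclib replicate 1 or 2 and 1 without combination replicate 2. Without all replicate 1 libraries 4 rose and 6 fell, beside 7.88% and 10.9% of all genes, and the calls of ZNF362, ZNF574 and ZNF639 were lost.

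The effect of ATRA could be read without and with palbociclib from separate libraries. These were not independent, since deviations of same-numbered ATRA and combination libraries correlated at 0.782 to 0.908. Of the 15 genes called without palbociclib all 15 had the same sign with it, and 7 were called in both, namely ZNF385A, ZNF687, ZNF592, ZNF516, ZNF639, ZNF598 and ZNF574. The shares over all genes are not given here, so these counts are not read as a trait of the ZNF genes. The log2 change of ZNF687 was 0.84 without and 0.89 with palbociclib, that of ZNF592 0.56 and 0.57, and that of ZNF516 −0.65 and −0.82. ZNF367 was the gene in which the 2 differed most, with −0.79 without and −0.19 with palbociclib. The test of departure from additivity gave 0.61 for it (95% interval 0.18 to 1.03, unadjusted p = 0.00963, adjusted p = 1 by limma). In that test limma called 0 of 75 genes and 0 of all 7820, and before adjustment 2 ZNF genes, ZNF367 and ZNF22, were higher and 0 lower at p under 0.05, beside 1.97% and 1.05% of all genes. Without all replicate 1 libraries 1 gene was higher, ZNF398, and 2 lower, ZNF384 and ZNF740, beside 0.985% and 1.23% of all genes. Each had a log2 difference of at most 0.32 in size. In each of these genes replicates 2 and 3 had the same rounded value within every group, so the spread in that fit was set by rounding.

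**Figure D4:**
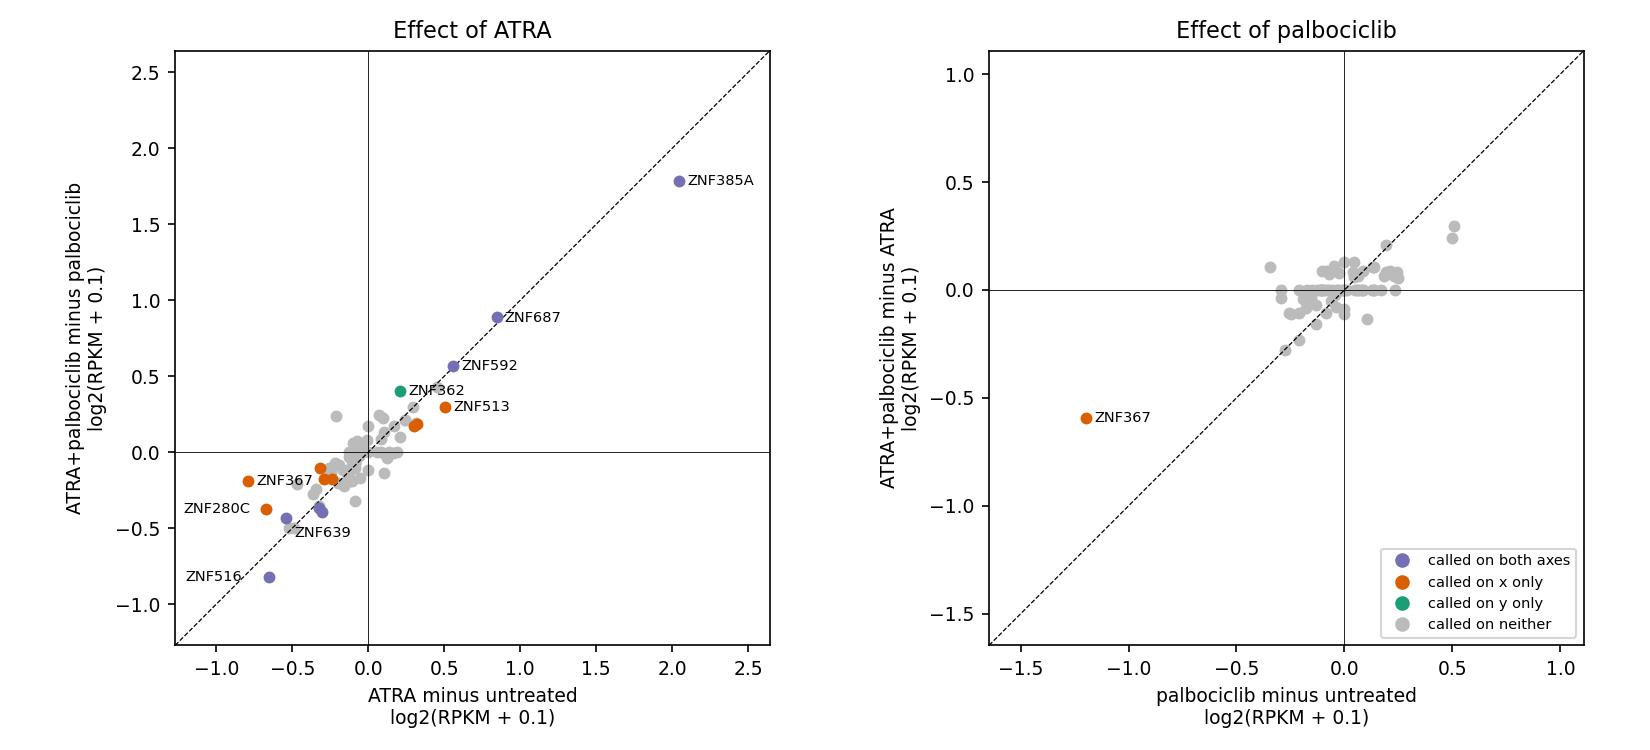
Log2 differences of the 75 ZNF genes for ATRA (left) and palbociclib (right), without the other drug on the x axis and with it on the y axis, with a dashed line where the 2 are equal and colours for the axes on which a gene was called. On the left ZNF385A, ZNF687, ZNF592, ZNF639 and ZNF516 lie near the line and ZNF367 above it, and on the right ZNF367, at −1.20 and −0.59, is the 1 called gene and lies farthest from 0.

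The ZNF genes were also grouped by role, in lists chosen with earlier results of these data known, and no list was tested against another. Counts with ATRA are without a block and stand beside 8.71% higher and 11.6% lower of all genes. With a replicate block ZNF217 also fell with ATRA (adjusted p = 0.00642 by limma). In that fit ZNF622 and ZNF335 rose with ATRA (adjusted p = 0.00691 and 0.0482 by limma). Of 10 chromatin adaptors 6 met the level limit, and with ATRA 2 rose (ZNF687 and ZNF592), 1 fell (ZNF516) and 3 did not pass the test. Those 3 were ZNF217, a part of CoREST complexes, at 8 to 10 RPKM in untreated and 6 to 8 in ATRA libraries, ZNF644 at 11 to 12 and 9 to 12, and ZNF518A at 8 to 10 and 7 to 9. In the ribosome and translation list 4 of 5 genes met it, and ZNF598 fell with ATRA while ZNF330, ZNF346 and ZNF622 did not pass the test. In the list of mitosis and replication ZNF367 fell with each treatment, and ZNF207 and ZNF830 did not pass in any comparison without the block. Of 5 RNA-processing genes 1, ZNF385A, rose with ATRA. Among 8 promoter-binding activators 1 fell with ATRA, ZNF131, and the pair ZNF143 and ZNF76, which bind the same promoters, had means of 8 and 3.67 RPKM in untreated and 7.33 and 4.33 RPKM in ATRA libraries. Of 7 KRAB genes known for silencing repeats or imprints ZNF274 alone met the level limit, at 5 to 6 RPKM in every library, and ZNF91 and ZNF93 were listed at 0. Of 8 genes known from blood or leukaemia, ZNF384, a fusion partner in acute leukaemia, and ZNF589 met it and neither passed a test in the reported fit. Without all replicate 1 libraries ZNF384 passed with palbociclib, with both against palbociclib and in the test of departure from additivity. Its replicates 2 and 3 had the same rounded value within every group.

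The ZNF genes above the level limit differed in build from those under the level limit. A KRAB box was found by pattern in 13 of 75 proteins (17.3%) and in 258 of 431 of the others (59.9%), and 10 of 75 genes (13.3%) lay on chromosome 19 beside 239 of 439 (54.4%). The patterns asked for fixed residues, so KRAB or SCAN boxes that diverge from them may have been missed. The proteins held a median of 6 C2H2 fingers, from 0 in ZNF330 and ZNF503 to 36 in ZNF142, beside a median of 11 in the others. SCAN boxes were in 6 (8.0%) and in 4.2% of the others. These shares compare genes above and under a limit of 5 RPKM, and of the 439 under it another 213, besides those listed at 0, were at 1 RPKM or more in at least 3 libraries. Counts of reads that fit several similar genes were left out by the counting, so low levels of genes with close copies are uncertain. Of the 13 genes with a KRAB box found 1 rose and 1 fell with ATRA (ZNF212 and ZNF398), and of the 57 genes in which neither box was found 5 rose and 8 fell. On chromosome 19 none of 10 rose and 2 fell, ZNF574 and ZNF146. These counts stand beside 8.71% and 11.6% of all genes, and the difference between the kinds of gene was not tested.

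The corepressor genes that KRAB proteins act through were listed separately. Of 28 genes 27 met the level limit, and without a block none rose in any of the 6 comparisons. Of all genes 8.71% rose with ATRA, 0.908% with palbociclib, 12.7% with both and 5.86% with both against palbociclib. With a replicate block GATAD2B rose with ATRA and with both (adjusted p = 0.0153 and 0.0118 by limma), and more genes fell, CBX3 among them. Of the 27 genes 5 fell with ATRA, 3 with palbociclib and 9 with both, beside 11.6%, 3.16% and 17.7% of all genes. Some of these calls lay close to the threshold, such as HDAC2 and SUMO2 with ATRA (adjusted p = 0.0461 and 0.0492 by limma). No values with a library left out are given for this list, and it was not tested against all genes. TRIM28, the protein that KRAB boxes bind, was at 121, 133 and 125 RPKM in untreated libraries, 118, 100 and 110 with ATRA, 132, 113 and 119 with palbociclib and 116, 93 and 105 with both, and passed the test in the combination alone (its log2 value fell by 0.28, adjusted p = 0.0446 by limma). UHRF1, which guides the maintenance of DNA methylation at replication, was at 48, 58 and 55 RPKM in untreated and 26, 31 and 30 in palbociclib libraries, and fell by 0.89 on the log2 scale (adjusted p = 0.000671 by limma). It was at 36, 41 and 44 RPKM with ATRA and 26, 29 and 28 with both, where it fell by 0.41 and 0.95 (adjusted p = 0.0132 and 5.2e-05 by limma). CBX1, a heterochromatin protein, went from 31, 34 and 33 RPKM to 28 in each ATRA library, 28, 29 and 27 with palbociclib (adjusted p = 0.0389 by limma) and 26, 25 and 25 with both.

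Across the 12 libraries the patterns of other ZNF genes could be ranked by their likeness to those of ZNF385A and ZNF367. Closest to ZNF385A were ZNF740 (Pearson r = 0.94), ZNF687 (0.93) and ZNF592 (0.91), and closest to ZNF367 were ZNF200 (0.94), ZNF664 (0.78) and ZNF146 (0.75). These values describe 12 libraries in 4 groups, so they mostly restate the differences between groups.

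The replicate 1 libraries of the treated groups split the ZNF genes by transcript length. The 11 genes that were lower there than in every treated replicate 2 and 3 had a median canonical transcript of 6256 bases, the 5 that were higher 2289 bases, and the other 59 genes 3286 bases. ZNF106, with a transcript of 10396 bases, was at 11, 18 and 19 RPKM with ATRA, 11, 16 and 18 with palbociclib and 11, 19 and 18 with both, beside 16, 16 and 15 in untreated libraries. ZNF511, with 1084 bases, was at 11, 8 and 8, at 13, 9 and 9 and at 11, 8 and 8, beside 10, 9 and 10. In ZNF106 the treated replicate 1 values lay below the untreated range and the other treated values at or above it, and in ZNF511 the order was the opposite. Over the 75 genes Spearman's rho between transcript length and the deviation of replicate 1 was −0.59, and over 7795 of all genes −0.61, given as a description across genes of the same libraries. The part of this pattern in the ATRA and palbociclib results was not tested beyond the counts without replicate 1.

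**Figure D5:**
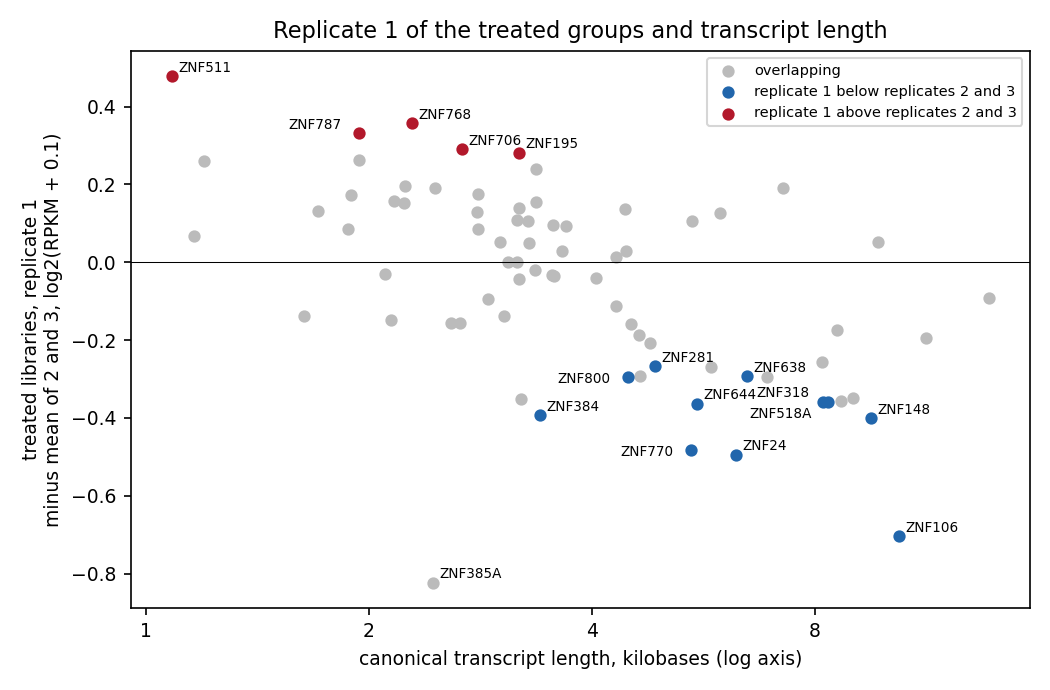
Length of the canonical transcript (x axis, kilobases, log) against the mean difference of replicate 1 from replicates 2 and 3 over the 3 treated groups (y axis, log2(RPKM + 0.1)) for the 75 ZNF genes. The 5 named genes with higher replicate 1 values have transcripts of 1084 to 3187 bases and the 11 with lower values 3407 to 10396 bases, and ZNF385A is the lowest point although its groups of replicates overlapped.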

How the data were processed

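The authors made poly(A) libraries from HL‐60 cells treated for 3 h, mapped the reads to hg38 with HISAT2 and counted them per gene with HTSeq in its default settings, which leave out reads that fit several genes; versions, the annotation and whether the kit marked strand were not given in the sources used here. The deposited values are scores, namely RPKM that the authors rounded to whole numbers, without pooling of replicates. The table holds no counts, so depth is unknown and no counting error is given.

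Groups came from the labels. The 75 genes, the role lists and the tests were chosen with earlier results of these data known. Limma 3.58.1 (R 4.3.3) was fitted to log2(RPKM + 0.1) of all 12 libraries, with 1 mean per group, eBayes and a variance trend, over the 7820 genes with at least 5 RPKM in at least 3 libraries. P-values were Benjamini-Hochberg adjusted within each of 6 comparisons and genes under 0.05 were called. Fold changes are on the log2(RPKM + 0.1) scale and understate changes of low genes. The deposited score values were expected to carry decimals. The rounding range of a fold change is the log2 ratio of the group mean RPKM values, moved by 0.5 RPKM in opposite directions, without the added 0.1. It is therefore on a somewhat different scale from the fold change beside it. The named genes were the 10 largest called changes each way per comparison, the 10 highest levels, the neighbours of the level limit, the role and corepressor lists and the 3 genes most like ZNF385A and ZNF367. No 2 libraries were duplicates: pairs shared 3.87 to 21.1% of values among 2660 genes with a mean of at least 20 RPKM. Deviations of same-numbered libraries correlated at 0.438 to 0.908 between treated groups and at 0.0453 to 0.367 between untreated and treated groups. The reported fit has no block, and counts of ZNF genes with a replicate block are given for the comparisons in which they differ. Coordinates, transcripts and protein patterns came from GENCODE 44 (GRCh38), and promoters from RefSeq, with 69 of 75 genes matched. The fit was tested on simulated data. Python 3.11.15, pandas 2.3.3 and matplotlib 3.10.9 were used for tables and plots.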

Additional observations from a re-analysis of the deposited data

How the results depend on the processing

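Of 46 called pairs of gene and comparison, 0 reversed in direction under any alternative, and 16 were called under each alternative other than the threshold of 0.001. Counts are given as higher and lower genes. With ATRA they were 1 and 0 at the threshold of 0.001, 10 and 17 with a replicate block, 5 and 4 with library median centring, and 3 to 5 and 4 to 8 with 1 library left out. With palbociclib they were 4 and 1 with the block, 0 and 2 in a fit of the 2 groups alone, 1 and 1 with centring or no variance trend (ZNF513 higher), 3 and 2 without all replicate 1 libraries, and 0 and 1 to 2 with 1 library left out. With both drugs they were 2 and 2 at 0.001, 12 and 20 with the block, 12 and 8 with centring, and 6 to 9 and 9 to 12 with 1 library left out. For both drugs against palbociclib they were 1 and 0 at 0.001, 1 and 1 in the 2 groups alone, 7 and 10 with the block, and 2 to 4 and 1 to 3 with 1 library left out. For both drugs against ATRA they were 0 and 0 throughout, and for departure from additivity 1 and 2 without all replicate 1 libraries and 0 and 0 otherwise.

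The median log2 change of the 75 genes moved with centring to −0.048 (ATRA), 0.051 (palbociclib), −0.01 (both), 0.038 (both against ATRA) and −0.025 (additivity), and without all replicate 1 libraries to 0 (ATRA, both, and both against palbociclib) and −0.03 (additivity). With 1 library left out it ran from −0.116 to −0.053 (ATRA), −0.123 to −0.037 (both), −0.006 to 0.041 (both against ATRA), −0.077 to −0.032 (both against palbociclib) and −0.016 to 0.059 (additivity). The cause of these shifts was not tested. Untreated and treated libraries shared only a number, so the block there rests on a hint from the data, since in 18 of 18 checks a library correlated best with the one of its own number. Rounding and the unknown depth limit every value under about 10 RPKM.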

Other observations

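Among the 439 ZNF genes under the level limit, 213 were at 1 RPKM or more in at least 3 libraries. ZNF395, a gene induced by low oxygen, was at 3 RPKM in all untreated libraries, 4, 3 and 3 with ATRA, 2 in all palbociclib libraries and 4, 3 and 3 with both, and it was under the level limit of the fit. ZNF521, ZNF683 and ZNF300, known from early blood progenitors, lymphocytes and leukaemia, were listed at 0 in all 12 libraries.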
